A study of Mus musculus with 4 samples.

Results

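The 49 genes described here encode the machinery that shortens, decaps and degrades cytoplasmic mRNA, together with the nuclear and cytoplasmic exosome and the nonsense-mediated decay factors. They were chosen by name, and each was represented by its most abundant transcript, the one with the highest mean over the 4 libraries. All 49 were found, among 25796 genes of the table, and all 49 passed the filter on low values. The libraries are inputs, the RNA before enrichment, of an experiment on N6-methyladenosine (m6A) in epithelial cells shaken off mouse colon in a chelating, reducing buffer with a ROCK inhibitor. There were 2 libraries labelled Ythdf1 KO and 2 labelled WT, both from colon epithelial cells, and the treatment buffer was common to all. Strain, age, sex and the design of the knockout allele are not given in the labels. Whether replicates were different animals is not stated, so a p-value here reflects the spread among these 4 samples and that spread may be technical. Below, labelled KO 1 and labelled KO 2 are the replicates of the libraries labelled Ythdf1 KO.

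Decay of most mRNAs begins with removal of the poly(A) tail by the PAN2-PAN3 and CCR4-NOT complexes. The body is then degraded from the 5′ end, after binding of the Lsm ring and removal of the cap by DCP2, by the exonuclease XRN1, or from the 3′ end by the exosome. Cytoplasmic readers of m6A connect to this machinery: YTHDF2 recruits CCR4-NOT to methylated mRNA through its scaffold CNOT1, and YTHDF1, the protein encoded by the targeted gene, has been linked to translation and to decay. Colon epithelium renews itself continuously from stem cells at the base of its crypts.

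Recovered reads on the most abundant transcripts numbered 25936859 and 30951138 in the libraries labelled Ythdf1 KO, against 21686140 and 24576164 in the WT libraries. The targeted gene was not lower where its loss was labelled. Ythdf1 had normalised read counts of 1752 and 1737 in the libraries labelled Ythdf1 KO, against 1088 and 775.4 in the WT libraries. In the authors' deposited table its log2 fold change was 0.91 and its q-value 0.0145. Each direction below therefore follows the labels, not a checked genotype. All 15 epithelial markers were listed, none at 0 in any library, with summed values of 1352954 and 1084878 in the libraries labelled Ythdf1 KO against 1252841 and 1234964 in WT. Muc2 was the largest part of each sum, with 683863 and 402153 in the libraries labelled Ythdf1 KO against 607023 and 515367 in WT. The sums do not show that 2 of the 15 lay above both WT libraries and 3 below. Among all genes with a mean of at least 500, 22.7% lay above and 12.8% below. Of 16 leukocyte markers, 14 were listed and 7 of those stood at 0 in at least 1 library, Cd4 and Lyz2 among them at 0 in both libraries labelled Ythdf1 KO. Their sum was 1224 and 693.2 in the libraries labelled Ythdf1 KO, against 1793 and 1588 in WT. The 10 markers of cycling crypt cells summed to 15469 and 18445 in the libraries labelled Ythdf1 KO, against 11640 and 14522 in WT. Mki67 made up most of each sum, with 9025 and 11002 in the libraries labelled Ythdf1 KO, against 6489 and 8244 in WT. The 10 did not move together: 3 lay above both WT libraries (14.3% of all genes did) and 1, Cdk1, below (21.4% did). Aurkb, Bub1 and Pcna overlapped, with fitted differences below 0. The part of these marker differences in the results below was not tested, and in bulk RNA fewer cells of a type and less RNA per cell cannot be told apart.

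No decay factor passed the test between the labelled groups. Differences are on the scale of log2(value + 1), labelled Ythdf1 KO minus WT, and were fitted with limma-trend over all 23116 genes that passed the filter. At a Benjamini-Hochberg adjusted p under 0.05, 0 of 49 members were called, and 0 of all genes (0%). At an unadjusted p under 0.05 it was again 0 of 49, against 1257 of 23116 genes (5.44%). The smallest adjusted p among the members was 0.759, equal to the smallest over all genes. edgeR on recovered reads called 0 members, with 1 at an unadjusted p under 0.05 (4.66% of all genes were). limma without a trend called 0 members, where 2.73% of all genes were called, and 1 member had an unadjusted p under 0.05, where 9.11% of all genes did. DESeq2 on recovered reads called 1 member, Lsm5, where 4.76% of all genes were called, and 5 members had an unadjusted p under 0.05, where 16.2% of all genes did.

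The members were spread to both sides of 0. Fitted differences were above 0 for 25 members and below 0 for 24, with a median of 0.04 where the median over all genes tested was -0.09. Leaving out WT 1 gave a median of -0.027, leaving out WT 2 -0.038, leaving out labelled KO 1 0.20 and leaving out labelled KO 2 0.052, so no direction can be given to the list. For 11 members both libraries labelled Ythdf1 KO lay above both WT libraries, where 14.3% of all genes did. For 9 members both lay below, where 21.4% of all genes did. These shares depend on level: among genes whose mean over the 4 libraries reached 500, 22.7% lay above and 12.8% below. The 31 members at that level had 8 above and 4 below, with a median of 0.13 against 0.07 for all genes at that level. With 3 libraries the counts grow by construction, to 19 above and 16 below without WT 2, and to 24 above and 15 below without labelled KO 1. Below both WT libraries stood 19 members without labelled KO 2. With quantile normalisation 7 members stood above. Shares over all genes under these settings are not given here, so these counts cannot be read as a trait of the members. The highest of the 4 values was in labelled KO 1 for 13 members, labelled KO 2 for 16, WT 1 for 12 and WT 2 for 8.

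**Figure D1:**
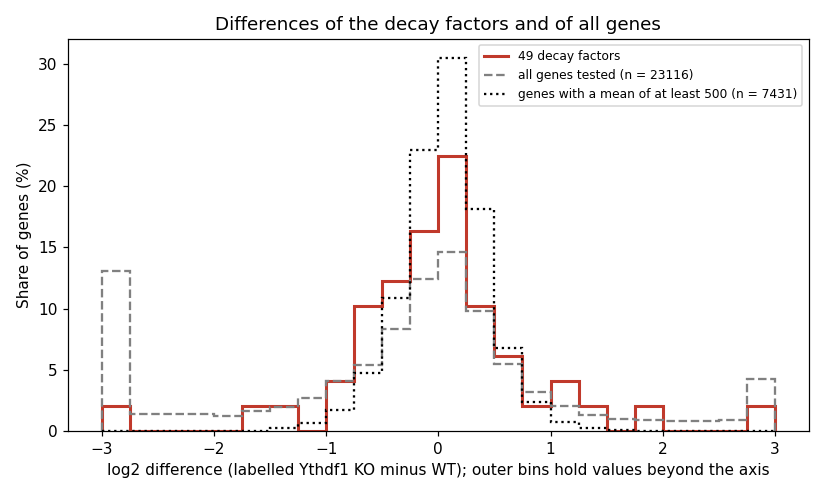
The horizontal axis is the fitted log2 difference, labelled Ythdf1 KO minus WT, and the vertical axis the share of genes in percent, for the 49 decay factors (red), all 23116 genes tested (dashed) and the 7431 genes with a mean of at least 500 (dotted). Differences within 1 in either direction were found for 41 of the 49 members, and the outer bins hold all values beyond the axis.

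The precision of a difference followed the level. The 31 members with a mean of at least 500 had a median SE of 0.28 on the log2 scale, against 0.29 for all genes at that level, and the 18 members below it had a median SE of 0.66, against 2.25 for all genes below it. Among the 18 are 6 of the 7 Lsm ring genes and all 8 exosome core genes, so the widest differences described below belong to the least precise genes.

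**Figure D2:**
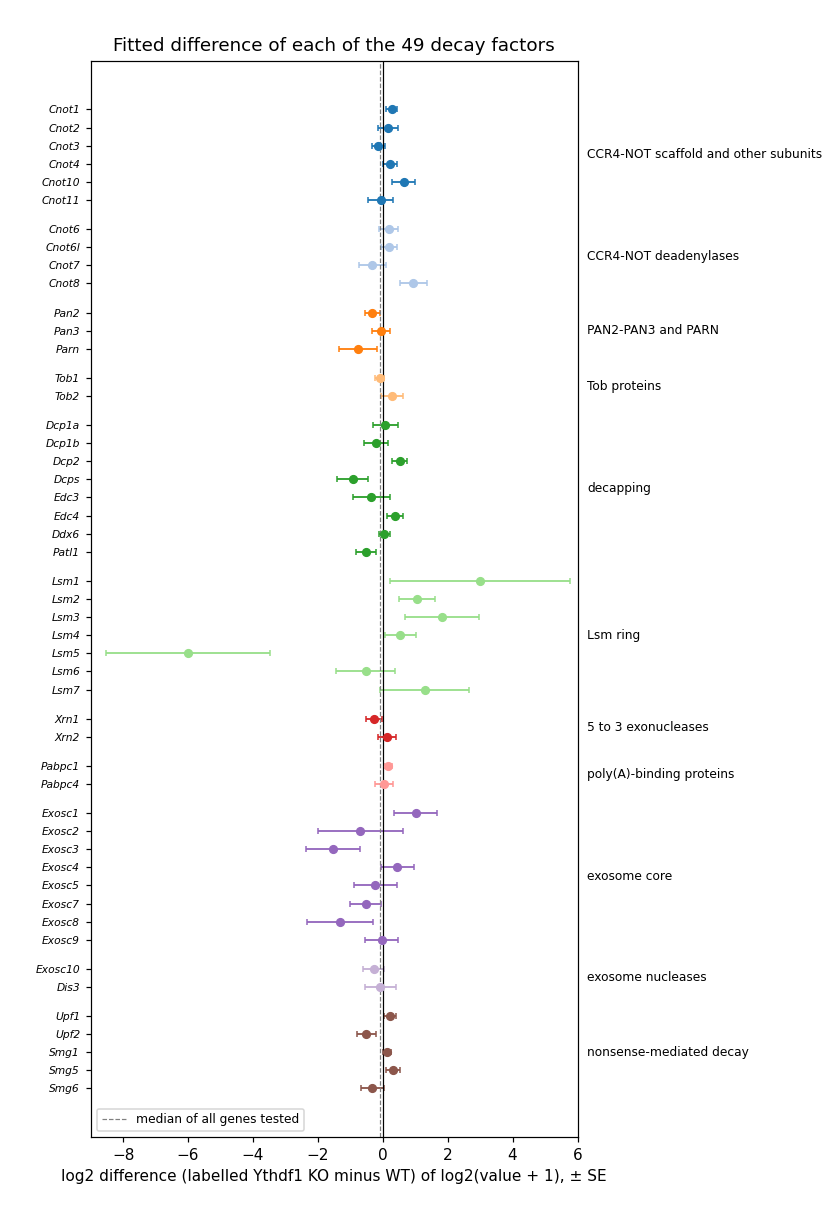
Each point is the fitted log2 difference, labelled Ythdf1 KO minus WT, of 1 of the 49 decay factors, with its SE as the bar, grouped by role from the CCR4-NOT complex at the top to nonsense-mediated decay at the bottom. The members of the Lsm ring span -6.00 to 2.998, while the CCR4-NOT subunits lie between -0.32 and 0.94.

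CCR4-NOT is the main deadenylase of the cytoplasm, and 7 of its 10 listed subunits had fitted differences above 0, with a median of 0.18 against 0.07 for all genes whose mean reached 500, as it did for all listed subunits but Cnot7. For 5 of the 10 both libraries labelled Ythdf1 KO lay above both WT libraries, where 22.7% of all genes at that level did. For 1, Cnot7, both lay below, where 25.5% of all genes with a mean under 500 did, and 17.2% of those with a mean of at least 100. Cnot1, the scaffold that carries the other subunits and binds YTHDF2, had normalised read counts of 9088 and 8344 in the libraries labelled Ythdf1 KO, against 6439 and 8047 in WT. The groups did not overlap, but labelled KO 2 and WT 2 were close. The difference was 0.27 ± 0.17 (SE), adjusted p = 0.788. Cnot4, the subunit with ubiquitin ligase activity, had 1887 and 2094 in the libraries labelled Ythdf1 KO, against 1719 and 1683 in WT. Cnot10, of the module at the amino-terminal end of the scaffold, had 1423 and 1039 in the libraries labelled Ythdf1 KO, against 969.3 and 628 in WT. Its gap between groups was smaller than the gap within either group, and the difference was 0.64 ± 0.35 (SE), adjusted p = 0.762. Among the other subunits of this part of the complex, Cnot2, Cnot3 and Cnot11 overlapped between groups, with differences of 0.16, -0.13 and -0.07. Cnot9, a subunit outside the list that was singled out after its values were seen, had 868.7 and 675.8 in the libraries labelled Ythdf1 KO, against 503.8 and 577.5 in WT, also without overlap (difference 0.51 ± 0.35, adjusted p = 0.812).

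The catalytic subunits of CCR4-NOT come as 2 pairs of related genes, and the members of 1 pair lay on opposite sides. Cnot8 and Cnot7 encode alternative CAF1-type deadenylases that occupy the same place in the complex. Cnot8 (gene ID 69125, mm10 chromosome 11, 58104224 to 58118596, plus strand, transcript XM_006534103.3) had 599.1 and 823 in the libraries labelled Ythdf1 KO, against 306.6 and 435.1 in WT. Both values labelled Ythdf1 KO were above both WT values, with means of 711.1 ± 158 and 370.9 ± 90.9 (SD, n = 2 each) and a ratio of 1.92. The difference was 0.94 ± 0.41 (SE), with an unadjusted p = 0.0611 and an adjusted p = 0.759. It lay between 0.69 and 1.19 when single libraries were left out, where groups without overlap cannot change sign. Cnot7 (gene ID 18983, mm10 chromosome 8, 40492541 to 40511333, minus strand) had 351 and 477.3 in the libraries labelled Ythdf1 KO, against 539.9 and 482.6 in WT. Labelled KO 2 lay just under WT 2, without overlap, and the difference was -0.32 ± 0.41 (SE), adjusted p = 0.881. Within-library ratios were formed for 7 pairs of partner or paralogous genes, and groups did not overlap for 2 of them. The ratio of Cnot8 to Cnot7 within a library was 1.71 and 1.72 in the libraries labelled Ythdf1 KO, against 0.568 and 0.902 in WT. An exact permutation test of 2 against 2 libraries cannot give a two-sided p below 0.333, and the pair was singled out after its values were seen, so this ratio is a description.

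The CCR4-type pair showed less. Cnot6l had 1303 and 1578 in the libraries labelled Ythdf1 KO, against 1293 and 1222 in WT. The groups did not overlap, with labelled KO 1 close to WT 1, and the difference was 0.19 ± 0.25 (SE). Cnot6 overlapped, with 1174 and 1879 in the libraries labelled Ythdf1 KO against 1350 and 1280 in WT. The ratio of Cnot6l to Cnot6 was 1.11 and 0.84 in the libraries labelled Ythdf1 KO, against 0.957 and 0.954 in WT, so the WT values lay between those labelled Ythdf1 KO.

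**Figure D3:**
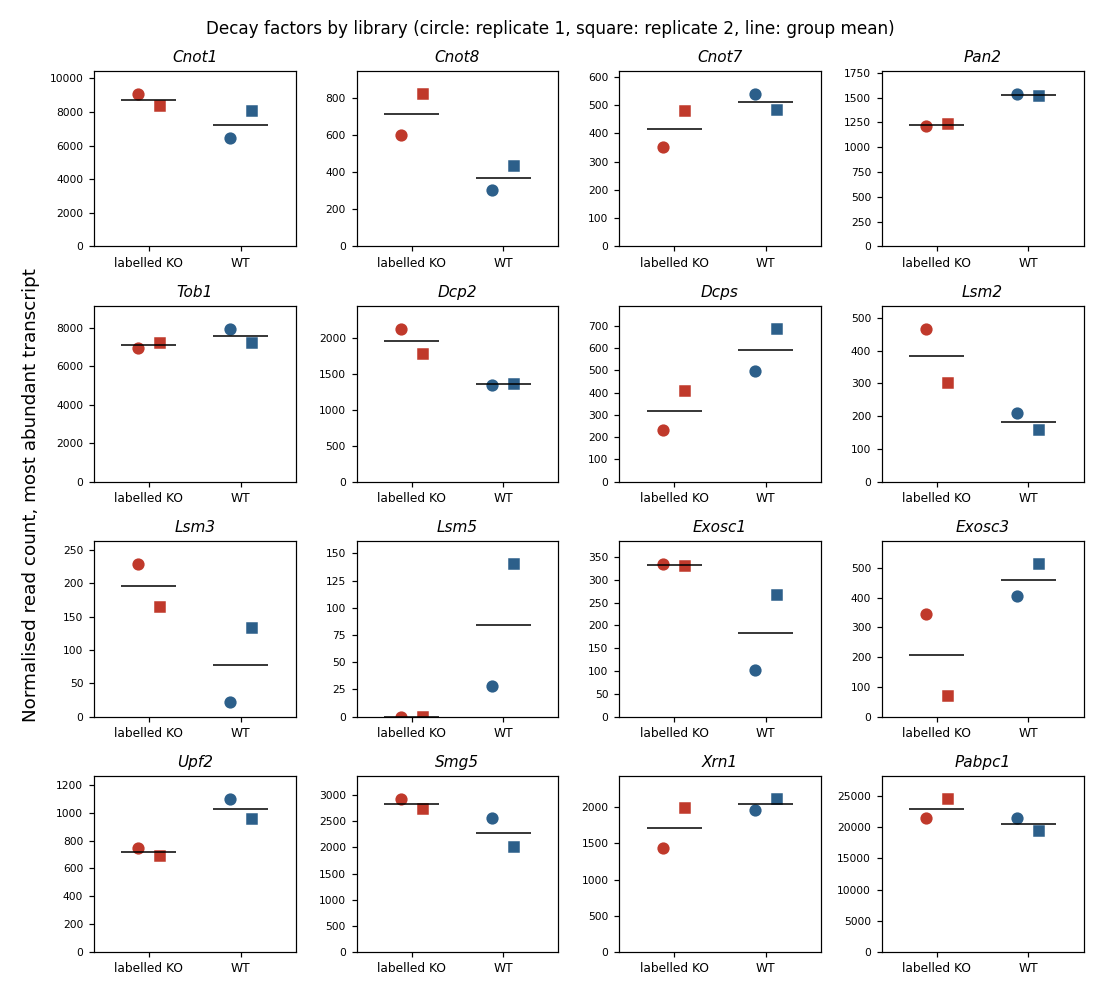
Each panel shows 1 decay factor, with its normalised read count on a vertical axis from 0 and the libraries labelled Ythdf1 KO (red) left of WT (blue); circles are replicate 1, squares replicate 2 and lines group means. Pan2 and Dcp2 show tight groups that do not overlap, while Lsm3, Lsm5 and Exosc3 show wide spreads within a group.

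The upstream region of Cnot8 is printed because its levels set it apart from its partner, and those of Lsm5 and Lsm3 because they lay on opposite sides within 1 complex. Each is the 250 bases before the start site in RefSeq, build GRCm38.p6, read 5′ to 3′ on the gene's strand, at chr11:58103979-58104228 (plus), chr6:56704700-56704949 (minus) and chr6:91515785-91516034 (plus). The region of Cnot8 is the one whose start site lay nearest to that of the transcript used, and its last 5 bases lie inside that transcript. Its last 76 bases, with the second marked GC box, lie inside the listed transcript NM_026949.3, and 3 further listed transcripts of Cnot8 start upstream and span it whole. Capitals mark 4 searched motifs on either strand: GGGCGG (the GC box), CCAAT (the CCAAT box), CGGAAG (the core of ETS sites) and CACGTG (the E-box).
Cnot8: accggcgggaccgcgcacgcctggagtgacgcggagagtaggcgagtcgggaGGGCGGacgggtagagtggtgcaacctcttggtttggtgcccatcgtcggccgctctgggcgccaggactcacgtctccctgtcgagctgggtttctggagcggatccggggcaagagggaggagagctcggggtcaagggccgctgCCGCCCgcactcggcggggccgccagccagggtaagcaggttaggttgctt
Lsm5: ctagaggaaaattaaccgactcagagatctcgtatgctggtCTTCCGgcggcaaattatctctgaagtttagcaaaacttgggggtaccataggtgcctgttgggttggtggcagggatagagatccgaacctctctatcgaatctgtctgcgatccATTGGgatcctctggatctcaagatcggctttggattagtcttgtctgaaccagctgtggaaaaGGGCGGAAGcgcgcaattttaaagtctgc
Lsm3: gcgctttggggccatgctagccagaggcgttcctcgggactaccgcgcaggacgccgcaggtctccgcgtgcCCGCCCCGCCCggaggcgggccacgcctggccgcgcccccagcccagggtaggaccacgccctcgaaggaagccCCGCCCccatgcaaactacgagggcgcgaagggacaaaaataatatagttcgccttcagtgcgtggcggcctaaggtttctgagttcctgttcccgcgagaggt
Cnot8 holds 2 GC boxes and Lsm3 holds 3, none of the other motifs in either, while Lsm5 holds 1 GC box, 1 CCAAT box and 2 ETS cores, of which 1 overlaps the GC box. Of the 49 members, 40 were matched to an upstream region by symbol, and 29 of the 40 (72.5%) held GGGCGG, against 32.7% of all 32851 regions of that length. CCAAT was held by 14 of the 40 (35%, against 33.9% of all), CGGAAG by 11 (27.5%, against 13.6%) and CACGTG by 2 (5%, against 6.02%). The median GC content was 61.6% for the members and 52.4% for all regions. GGGCGG was found in 7 of 9 matched members that lay above both WT libraries and in 7 of 8 that lay below. A match of letters is no evidence of binding.

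The listed genes Pan2, Pan3 and Parn had fitted differences below 0, with that of Pan3 well within its SE. Pan2, the nuclease of the complex that makes the first cuts in long tails, had 1218 and 1232 in the libraries labelled Ythdf1 KO, against 1539 and 1516 in WT. Its groups were tight and did not overlap, with means of 1225 ± 10.5 and 1527 ± 15.6 (SD, n = 2 each) and a ratio of 0.802. In the fit, which takes the spread of genes at like levels into account, the difference was -0.32 ± 0.24 (SE), adjusted p = 0.816. Pan3, its adaptor, overlapped at -0.05 ± 0.29 (SE), with 3448 and 2311 in the libraries labelled Ythdf1 KO against 3519 and 2437 in WT. Parn, a poly(A) ribonuclease that also trims noncoding RNAs, had 180.3 and 426 in the libraries labelled Ythdf1 KO, against 603 and 373.6 in WT, and overlapped.

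The Tob proteins link CAF1-type deadenylases to the poly(A)-binding protein, and neither Tob gene stood apart. Tob1 had 6953 and 7212 in the libraries labelled Ythdf1 KO, against 7941 and 7214 in WT. Its groups failed to overlap only by the small step between labelled KO 2 and WT 2, and the difference was -0.10 ± 0.14 (SE). Tob2 overlapped, with labelled KO 1 at 3529 and the other 3 libraries between 1790 and 2100. Poly(A)-binding proteins coat the tail and interact with the deadenylases. Pabpc1, the main cytoplasmic one, had 21459 and 24556 in the libraries labelled Ythdf1 KO, against 21497 and 19437 in WT, and overlapped at 0.17 ± 0.12 (SE), adjusted p = 0.816. Pabpc4 had 1976 and 3070 in the libraries labelled Ythdf1 KO, against 2092 and 2733 in WT, with both WT values between those labelled Ythdf1 KO. Pabpc1 has near-identical copies elsewhere in the genome, so its counts are uncertain.

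In decapping, the catalytic subunit and the scavenger enzyme lay on opposite sides. Dcp2, which cleaves the cap (gene ID 70640, mm10 chromosome 18, 44380500 to 44424969, plus strand), had 2133 and 1782 in the libraries labelled Ythdf1 KO, against 1350 and 1367 in WT. The groups did not overlap, with means of 1957 ± 248 and 1359 ± 11.8 (SD, n = 2 each) and a ratio of 1.44. The difference was 0.52 ± 0.23 (SE), with an unadjusted p = 0.0631 and an adjusted p = 0.759. It lay between 0.39 and 0.65 when single libraries were left out, a range whose sign was fixed by the lack of overlap. Dcps, which hydrolyses the cap left over after 3′ decay (gene ID 69305, mm10 chromosome 9, 35124414 to 35175987, minus strand), had 229.8 and 407 in the libraries labelled Ythdf1 KO, against 498.2 and 686.5 in WT. Both values labelled Ythdf1 KO were below both WT values, with a ratio of 0.537, and the difference was -0.93 ± 0.48 (SE), adjusted p = 0.759. Patl1, a scaffold between decapping factors and the Lsm ring, had 636 and 769.3 in the libraries labelled Ythdf1 KO, against 895 and 1126 in WT. It too was below without overlap, at -0.52 ± 0.31 (SE), adjusted p = 0.788.

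The cofactors of decapping overlapped between groups. Dcp1a and Dcp1b, alternative activators of DCP2, had differences of 0.08 ± 0.39 and -0.21 ± 0.38 (SE), and within the libraries labelled Ythdf1 KO they took opposite orders. Dcp1a had 1501 and 755.2 in labelled KO 1 and labelled KO 2, against 1083 and 933.9 in WT. Dcp1b stood at 528.4 and 936.4 there, against 814.9 and 810.7 in WT. Edc4, a scaffold that brings DCP1 and DCP2 together, had 2101 and 2877 in the libraries labelled Ythdf1 KO, against 1728 and 2111 in WT. Labelled KO 1 fell just under WT 2 in that gene. Edc3, an enhancer of decapping, ranged from 246.3 to 698.1 within the libraries labelled Ythdf1 KO alone, and WT lay between those values at 552.3 and 505.8. Ddx6, the helicase that represses translation and promotes decapping, was among the steadiest, with 5055 and 5439 in the libraries labelled Ythdf1 KO against 4752 and 5392 in WT (difference 0.05 ± 0.16, SE).

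The Lsm ring binds the shortened tail and calls in decapping, and all its listed subunits but Lsm1 are shared with the nuclear ring on U6 RNA. It held the widest differences of any role. Lsm5 (gene ID 66373, mm10 chromosome 6, 56701063 to 56704699, minus strand, 1 listed transcript) stood at 0 in both libraries labelled Ythdf1 KO, against 28.18 and 140.3 in WT, which are 25 and 139 recovered reads. Against a floor of 3 reads per library, averaged over the group, the gene was at least 31.3-fold lower in the libraries labelled Ythdf1 KO, or 10.5-fold on WT 1 alone. Floors cover counting error only. The limma-trend difference, which depends on the added 1, had an unadjusted p = 0.0527 and an adjusted p = 0.759, while DESeq2 gave an adjusted p = 0.0282. For Lsm5 the log2 fold change in the authors' deposited table was -8.999 and the q-value 0.0212, where 4.47% of all genes had a q under 0.05 on their most abundant transcript. A value of 0 in both libraries labelled Ythdf1 KO with values above 0 in both WT libraries was found for 1018 of 23116 genes (4.4%), and the reverse for 230 (0.995%).

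Other subunits of the ring lay on the other side of 0. Lsm2 (gene ID 27756, mm10 chromosome 17, 34981854 to 34985891, plus strand) had 467.3 and 302.7 in the libraries labelled Ythdf1 KO, against 208.5 and 156.5 in WT. The groups did not overlap, with a ratio of 2.11 and a difference of 1.05 ± 0.55 (SE), adjusted p = 0.759. Lsm3 (gene ID 67678, mm10 chromosome 6, 91516035 to 91522620, plus strand) had 228.8 and 163.8 in the libraries labelled Ythdf1 KO, against 21.42 and 133.3 in WT. It did not overlap either, but WT 1 set most of the gap: the difference was 1.83 ± 1.13 (SE), adjusted p = 0.792, and 0.54 without WT 1. Lsm4 had 783.3 and 702.3 in the libraries labelled Ythdf1 KO, against 330.3 and 782.4 in WT, so WT 1 alone was low.

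The remaining ring genes varied as much within a label as between labels. Lsm7 had 477 and 173.7 in the libraries labelled Ythdf1 KO, against 494.8 and 27.26 in WT, a gap of 18.2-fold between the WT libraries. Lsm6 had 469.2 and 81.06 in the libraries labelled Ythdf1 KO, against 220.9 and 361.4 in WT. Lsm1, the subunit that makes the ring cytoplasmic, had 117.3 and 190.2 in the libraries labelled Ythdf1 KO, against 0 and 353.4 in WT. Its fitted difference of 2.998 ± 2.77 (SE) came from that 0, and the ratio of group means was 0.87. A value of 0 in WT 1 alone was found for 2.79% of all genes tested.

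The 5′ to 3′ exonucleases overlapped between groups. Xrn1, the cytoplasmic enzyme that degrades decapped mRNA, had 1437 and 1987 in the libraries labelled Ythdf1 KO, against 1967 and 2114 in WT, a difference of -0.27 ± 0.25 (SE), adjusted p = 0.832. Xrn2, the nuclear enzyme that acts in transcription termination, had 1282 and 1488 in the libraries labelled Ythdf1 KO, against 1069 and 1462 in WT. Its difference of 0.14 ± 0.28 (SE) was -0.082 without WT 1. The ratio of Xrn2 to Xrn1 within a library, the other pair without overlap, was 0.892 and 0.749 in the libraries labelled Ythdf1 KO, against 0.543 and 0.691 in WT.

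The exosome is a ring of subunits without catalytic activity of their own to which nucleases attach, and 6 of the 8 core genes listed had differences below 0. All 8 had a mean under 500. Their median was -0.38, as was that of all genes under 500, but those genes reach down to far lower levels. The median SE was 2.25 for those genes and 0.66 for the core genes. Among genes with a mean of at least 100, which all core genes reached, the median was 0.003. Of all genes under 500, 10.4% lay above both WT libraries and 25.5% below. At a mean of at least 100, 17.7% lay above and 17.2% below. Of the 8 core genes, 1 lay above and 2 below. Exosc1, a cap subunit that binds RNA, was above WT. It had 334.5 and 330.9 in the libraries labelled Ythdf1 KO, against 101.4 and 265.5 in WT, without overlap, at 1.01 ± 0.66 (SE), adjusted p = 0.8. Without WT 1 the difference was 0.32. Exosc3, another cap subunit, had 345.1 and 70.31 in the libraries labelled Ythdf1 KO, against 404.6 and 512.9 in WT. It lay below without overlap, at -1.54 ± 0.82 (SE), adjusted p = 0.76, and the difference was -0.40 without labelled KO 2, which set most of the gap. Exosc7, of the ring, had 320.9 and 263 in the libraries labelled Ythdf1 KO, against 507.2 and 348.3 in WT, at -0.53 ± 0.47 (SE), adjusted p = 0.827.

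Other core genes overlapped. Exosc8 had 42.66 and 120.8 in the libraries labelled Ythdf1 KO, against 100.3 and 321.1 in WT. Exosc2, the third cap subunit, had 33.93 and 523.6 in the libraries labelled Ythdf1 KO, against 149.9 and 314 in WT, a gap of 15.4-fold between the libraries labelled Ythdf1 KO. Its fitted difference was -0.69, while its ratio of group means was 1.202. Exosc5 likewise ranged from 145.4 to 440.9 within the libraries labelled Ythdf1 KO, around WT values of 275 and 322.1. For the ring genes Exosc4 and Exosc9 the differences were 0.45 ± 0.50 and -0.03 ± 0.50 (SE). The nucleases also overlapped. Exosc10, the nuclear nuclease, had 1666 and 960.3 in the libraries labelled Ythdf1 KO, against 1533 and 1550 in WT. Its difference was -0.29 ± 0.32 (SE), and 0.11 without labelled KO 2. Dis3, the nuclease at the base of the ring, had 313.1 and 292.8 in the libraries labelled Ythdf1 KO, against 352.8 and 288.7 in WT (-0.08 ± 0.47, SE; 0.068 without WT 1 and 0.043 with quantile normalisation).

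Nonsense-mediated decay degrades mRNAs with premature stop codons, and its 5 listed factors fell on both sides. Smg1, the kinase that phosphorylates UPF1, had 11593 and 11510 in the libraries labelled Ythdf1 KO, against 10188 and 10994 in WT. The groups did not overlap, at a small difference of 0.13 ± 0.13 (SE), adjusted p = 0.845. Smg5, an adaptor that binds phosphorylated UPF1, had 2927 and 2730 in the libraries labelled Ythdf1 KO, against 2559 and 2001 in WT, again without overlap (0.32 ± 0.21, SE, adjusted p = 0.806). Upf2, which bridges UPF1 to the exon junction complex, lay on the other side. It had 748.4 and 691.5 in the libraries labelled Ythdf1 KO, against 1099 and 957.1 in WT, with a ratio of 0.70 and a difference of -0.51 ± 0.29 (SE), adjusted p = 0.774. That difference lay between -0.61 and -0.41 when single libraries were left out. Its sign could not turn there, as the groups did not overlap. Upf1, the helicase of the pathway, had 6660 and 8152 in the libraries labelled Ythdf1 KO, against 5615 and 6965 in WT, and overlapped at 0.24 ± 0.18 (SE). Smg6, its endonuclease, had 1258 and 2145 in the libraries labelled Ythdf1 KO, against 2607 and 1611 in WT, with values of either label between those of the other.

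The transcripts of a gene share reads, so they are not independent, but they show where the choice of transcript matters. The 49 members had 248 listed transcripts, at most 26 for a gene (Cnot2), and 10 members had only 1. Of the 39 with more, 15 had all transcripts higher in the libraries labelled Ythdf1 KO, 14 had all lower, and 10 had transcripts on both sides. All 6 transcripts of Cnot8 lay above both WT libraries, with differences from 0.67 to 0.94. For Pan2, 13 of 15 lay below both WT libraries, and for Upf2 5 of 6. For Cnot7, 7 transcripts were lower and 3 higher, from -0.36 to 0.53. The most abundant transcript was a predicted RefSeq model for 19 members and, in part the same, a noncoding one for 6, among them Cnot1, Cnot4, Cnot7 and Pan2.

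The transcripts of Cnot4 gave unlike values. Its most abundant transcript, XR_001785150.1, had a difference of 0.22, while NM_001164411.1, with another 3′ end, had 1199 and 1155 in the libraries labelled Ythdf1 KO, against 616.6 and 643.1 in WT, a difference of 0.90. In the authors' deposited table the q-value of that transcript was 0.00917, at a log2 fold change of 0.90. For NM_016877.4 the authors' deposited table held a q-value of 0.031, at a log2 fold change of 0.79. With Lsm5 these were the 3 of 248 member transcripts that had a q under 0.05 in the authors' deposited table, where 3.67% of all transcripts had one. Summed over its 11 transcripts Cnot4 had 16348 and 14886 in the libraries labelled Ythdf1 KO, against 11751 and 11237 in WT. Lsm1 had transcripts on opposite sides, since NM_026032.1 had 0.969 and 112.5 in the libraries labelled Ythdf1 KO against 71.01 and 155.5 in WT.

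**Figure D4:**
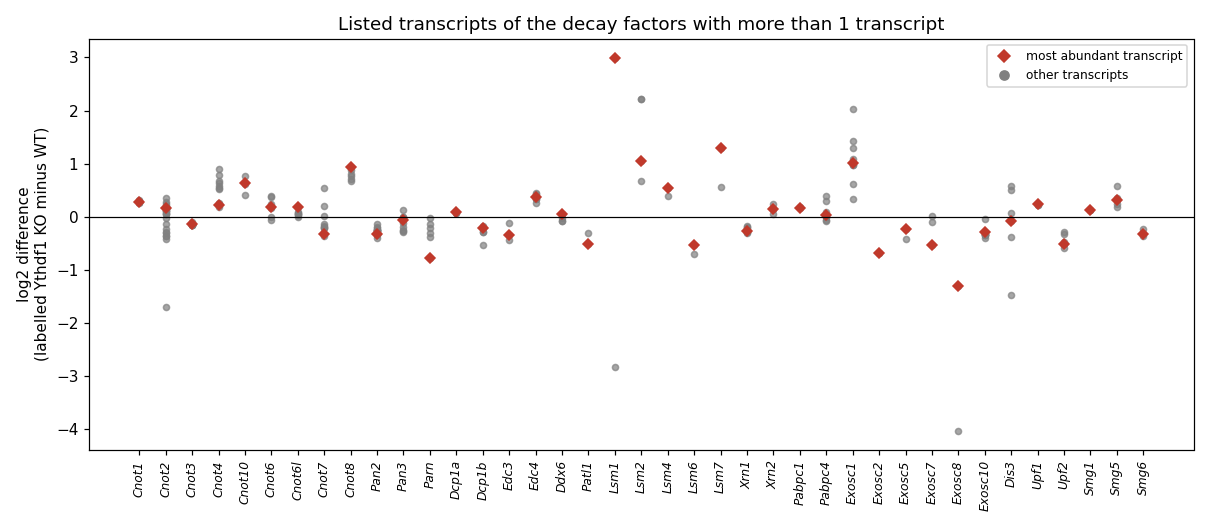
Each grey point is the log2 difference, labelled Ythdf1 KO minus WT, of a listed transcript, and each red diamond that of the most abundant transcript, for the 39 decay factors with more than 1 transcript. The transcripts of Cnot8 all lie above 0 and those of Pan2 all below, while Lsm1 has 1 on either side.

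Overlapping genes limit some of these values, because strand use in counting is not stated. The most abundant transcript of 14 members overlapped a listed gene on the opposite strand, Cnot1, Cnot4, Dcps, Lsm7, Dis3, Upf1 and Smg6 among them, and that of Smg1 overlapped Gm40454 on its own strand. Cnot8, Cnot7, Pan2, Dcp2, Lsm2, Lsm3, Lsm5, Patl1 and Upf2 overlapped no other listed gene.

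Other genes of mRNA decay gave a like picture. Of 76 listed, among them regulators of CCR4-NOT, the Ski complex, Argonaute and GW182 proteins, uridylyltransferases and the exon junction complex, all were in the table and 75 were tested (Btg4 failed the filter). limma-trend called 0 of 75, with 3 at an unadjusted p under 0.05, where 5.44% of all genes were. Both libraries labelled Ythdf1 KO lay above WT for 18, where 14.3% of all genes did, and below for 12, where 21.4% did. Of the 56 with a mean of at least 500, 17 lay above and 5 below, where 22.7% and 12.8% of all genes at that level did. Their median was 0.08, against 0.07 for all genes at that level. Of the 19 with a mean under 500, 1 lay above and 7 below, where 10.4% and 25.5% of all genes under 500 did. The median of these 19 was -0.64, against -0.38 for all genes under 500. The median difference of the 75 was 0.04, which was -0.046 without WT 2. Zfp36l2, a protein of the tristetraprolin family that recruits CCR4-NOT to AU-rich mRNAs, had 21195 and 25409 in the libraries labelled Ythdf1 KO, against 14255 and 17211 in WT. Its difference was 0.57 ± 0.15 (SE), unadjusted p = 0.00895 and adjusted p = 0.759, and of the tools run only DESeq2 called it. In the authors' deposited table its q-value was 0.0059, where 4.47% of all genes had a q under 0.05 on their most abundant transcript. Pelo, which rescues stalled ribosomes, had 570.1 and 742.8 in the libraries labelled Ythdf1 KO, against 341.5 and 327.1 in WT (0.96 ± 0.40, SE). Rbm8a, a core protein of the exon junction complex, had 160.9 and 311 in the libraries labelled Ythdf1 KO, against 486.9 and 656.2 in WT (-1.33 ± 0.52, SE, adjusted p = 0.759).

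The reader that recruits CCR4-NOT did not stand apart. Ythdf2 had 1269 and 1984 in the libraries labelled Ythdf1 KO, against 745 and 1609 in WT, and overlapped, at 0.53 ± 0.44 (SE), adjusted p = 0.819.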

How the data were processed

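The authors deposited 1 table for the 4 input libraries, with 87526 RefSeq transcripts of 25796 gene symbols on mm10. The deposited signal is, by its steps, the read count of a transcript over 1 scaling factor for its library, applied by the authors. In every library 100% of values lay within 0.001 of a multiple of the smallest nonzero one, which gave back the reads. The plan did not name this unit, and it was treated as a normalised value. Per the file headers, the authors' log2 fold change, p-value and q-value are given per transcript. Bowtie2 2.2.5, CASAVA 1.8, HOMER 4.10, deepTools 3.3.0, MACS2 2.1.0 and SAMtools 1.3.1 were used in the series, per the submitters' processing notes, with no role named. Counting program and strand use: not given in the sources used here. Without transcript lengths, levels were not compared between genes.

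Each gene was represented by its most abundant transcript and kept if 2 or more libraries reached a value of 1. In R 4.3.3, limma 3.58.1 with a robust trend was run on log2(value + 1), with the genotype label as its single term. At low values this scale can understate a change, and a single value near 0 can enlarge it or turn its sign against the ratio of means. The procedure was also run on simulated counts, with changes set only in genes with a mean of at least 100. That run does not cover genes at lower levels, and its outcome is not given here. edgeR 4.0.16 and DESeq2 1.42.0 on recovered reads, sums over transcripts, other pseudocounts, filters and scalings, a replicate block and each library left out were alternatives. Members and lists were chosen with earlier results of these data known. Members were given in full where groups did not overlap or the unadjusted p was under 0.05, plus the 2 most abundant of a role with none; decay genes outside the list were named at an unadjusted p under 0.05 without overlap, except Cnot9, which was chosen after its values were seen.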

Additional observations from a re-analysis of the deposited data

How the results depend on the processing

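Of 16 alternatives, 2 of them chosen after seeing the data (the most abundant coding transcript, and edgeR on summed reads), DESeq2 moved the counts of calls: 1 of 49 members (Lsm5) and 1 of 75 other decay genes (Zfp36l2), against 0 in limma-trend. With quantile normalisation 7 members lay above both WT libraries, against 11. Leaving out single libraries moved the member median between -0.038 and 0.20 and the median of the other decay genes between -0.046 and 0.081. It moved the members above both WT libraries between 16 and 24 and those below between 13 and 19, counts that grow by construction. Shares over all genes under these settings or quantile normalisation are not given here, so these counts cannot be read as a trait of the members. Of the 26 members given in full, 11 lay above both WT libraries and 9 below, and were named for that reason. For these, leaving out a library cannot turn the sign. Under every alternative run 22 of the 26 kept the sign of their difference, a count that the naming rule largely fixed. The others were Dis3 (0.043 with quantile normalisation, -0.22 to 0.068 with a library left out), Pabpc4 (-0.038 with quantile normalisation, -0.28 to 0.36), Xrn2 (-0.082 to 0.37) and Exosc10 (-0.68 to 0.11). Same-numbered libraries did not deviate together (correlation -0.00795 over all genes, -0.0241 at a mean of at least 100). Each gene gives a single gap between replicates per label. The correlation therefore cannot show whether same-numbered samples were collected or handled together. The replicate block called 0 members, with 1 at an unadjusted p under 0.05. The precision followed the level: the median SE was 0.66 for members with a mean under 500 and 0.28 for the others. The cause of these shifts was not tested.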
